A study of Homo sapiens with 11 samples.

Results

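The position of genes relative to chromatin domain boundaries was compared with their expression in H209, an established line of small cell lung carcinoma (NCI-H209). Of 57815 genes listed in the RNA tables, 4948 small RNA symbols and 37 mitochondrial genes were left out, and the other 52830 were classed by the midpoint of their locus on the H209 domain list. A gene whose midpoint lay within 40 kb of a domain start or end was called a boundary gene, a gene further inside a domain an interior gene, and any other gene outside. This gave 12951 boundary genes (24.5%), 20159 interior genes (38.2%) and 19720 outside genes (37.3%). The classes use positions only, so no expression value entered the choice.

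Chromatin domains are stretches of a chromosome whose parts contact each other more often than they contact the neighbouring stretches. In mammals many of their boundaries are bound by the insulator protein CTCF, which halts the loop-extruding cohesin complex, and boundaries are known to hold many transcribed genes, among them housekeeping genes that every cell uses. Genes deep inside domains are often controlled by enhancers within the same domain, and many of them are active in few cell types.

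The H209 material was 1 Hi-C library, which counts contacts between distant DNA after crosslinking, digestion with MboI and ligation, and 2 RNA-seq libraries. For comparison, DMS153, a second small cell lung carcinoma line, had 1 Hi-C and 3 RNA libraries, and MRC5, a noncancerous lung fibroblast line, had 1 Hi-C and 3 RNA libraries. All 3 lines were untreated and grown in the same medium, RPMI with fetal bovine serum, and each cell type is represented by 1 or, for the carcinoma, 2 established lines. The labels number the RNA libraries without saying whether they came from separate cultures, so errors here measure the spread between libraries, which may be technical. RNA values were FPKM, the fragments of a gene divided by transcript length and by the mapped fragments of the library. FPKM compares levels between genes per length, but the files hold no counts, so the depth is unknown.

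The H209 list held 3987 domains with a median size of 300 kb, a middle range of 160 to 560 kb and extremes of 80 and 2000 kb, with starts and ends on a grid of 20 kb. The RNA libraries held 16053 and 15963 genes at FPKM 1 or more over all listed genes. A gene at FPKM 1 or more is called expressed here. The deposited confidence interval reached on median 11.7% and 13.5% to each side of the value for genes between 1 and 10 FPKM in replicates 1 and 2, and 3.36% and 3.62% for genes at 100 FPKM or more. The label of a small cell carcinoma was checked against markers. All 12 neuroendocrine markers were expressed in both H209 libraries, with summed FPKM of 2096 and 2114. In MRC5 only 1 of them was expressed, UCHL1, with 705, 791 and 705 FPKM. That was above its 542 and 567 FPKM in H209, so UCHL1 does not separate the lines. Of 12 fibroblast markers 4 were expressed in H209, with sums of 40.5 and 36.7 FPKM, against 9860 to 10873 FPKM in MRC5. The sums of leukocyte and endothelial markers stayed at or below 1.12 FPKM in H209.

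Genes at H209 boundaries were expressed more often than genes in domain interiors. In H209 replicates 1 and 2, 39.7% and 39.6% of boundary genes were expressed, against 24.8% and 24.7% of interior genes and 29.7% and 29.4% of outside genes. The excess of boundary over interior genes was 14.9 ± 0.0281 percentage points (SD, n = 2), and over outside genes 10.2 ± 0.103 percentage points. The gap between the classes was far larger than the spread between the libraries, in which 1.96% of boundary genes, 1.31% of interior genes and 1.64% of outside genes lay on opposite sides of 1 FPKM. No p-value was computed over genes, because neighbouring genes share a boundary and are not replicates.

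The level of expressed genes was compared separately. The median level of expressed boundary genes was 11.5 ± 0.0364 FPKM, against 9.12 ± 0.0195 FPKM for interior genes and 10.7 ± 0.0903 FPKM for outside genes (SD, n = 2 libraries). On the log2(FPKM + 1) scale the median of expressed boundary genes lay 0.30 above that of interior genes in both libraries, a fold of 1.23. Among protein-coding genes alone, the median level of expressed genes was 15.2 FPKM at boundaries, 11.7 FPKM in interiors and 15.3 FPKM outside. Within this kind of gene the level at boundaries was thus above interiors but not above outside genes. The middle ranges overlapped widely in replicate 1, from 4.14 to 28.6 FPKM for expressed boundary genes and from 3.42 to 22.1 FPKM for expressed interior genes.

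The expressed share fell with distance from a domain edge. It was 42.6% of 3848 genes within 10 kb of an edge, 39.8% at 10 to 20 kb, 37.9% at 20 to 40 kb, 33.8% at 40 to 80 kb, 29.9% at 80 to 160 kb, 24.0% at 160 to 320 kb and 20.4% at 320 to 1000 kb, taking the mean FPKM of both libraries. The decline ran through the 40 kb limit without a step. The share was 37.5% at 30 to 40 kb and 35.6% at 40 to 50 kb. Among expressed genes next to the limit, DERL1, which helps retrieve misfolded proteins from the endoplasmic reticulum, had 37.1 and 38.2 FPKM just inside the boundary class, and STK35, a kinase, had 18.2 and 20.7 FPKM just outside it. The other nearest genes were LMX1B (1.27 and 1.12 FPKM) and MAP3K7 (24.9 and 26.3 FPKM) on the boundary side, and SENP8 (2.19 and 2.02 FPKM) and CGA (2.15 and 1.46 FPKM) on the interior side. LMX1B is a developmental transcription factor and MAP3K7 the kinase TAK1.

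**Figure D1:**
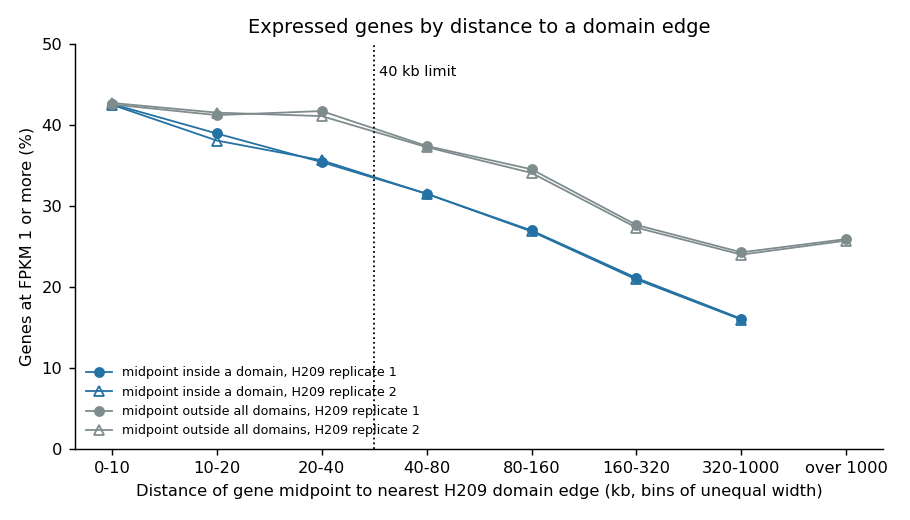
The vertical axis gives the share of genes at FPKM 1 or more and the horizontal axis the distance from the gene midpoint to the nearest H209 domain edge in bins of unequal width, for midpoints inside and outside domains and for each H209 library. In the nearest bin the inside curves start at 42.6% and 42.5% and the outside curves at 42.5% and 42.7%, and at 320 to 1000 kb the inside curves reach 16.1% and 16.0% and the outside curves 24.3% and 24.0%.

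Genes inside and outside domains differed in how far the expressed share fell. Inside domains it was 42.7% within 10 kb and 16.0% at 320 to 1000 kb. Outside domains it was 42.4% within 10 kb, 24.0% at 320 to 1000 kb and 25.9% of 3741 genes beyond 1000 kb. Boundary genes inside a domain were expressed in 38.3% of 7749 cases and those outside all domains in 41.8% of 5202 cases. Boundary genes whose nearest edge had the opposite edge of another domain within 20 kb had a share of 39.0%. All other boundary genes had 39.8%. Domains on the list can overlap, so these others may mix edges facing a gap with edges inside another domain. The mix of gene kinds moved with distance as well. Protein-coding genes made up 46.3% of genes inside domains within 10 kb of an edge and 20.1% of those at 320 to 1000 kb.

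The higher a gene was expressed, the more often it lay at a boundary. The boundary share was 17.9% of the 15586 genes listed at 0 FPKM, 21.2% of genes above 0 and up to 0.1 FPKM, 27.5% from 0.1 to 1 FPKM, 30.3% from 1 to 10 FPKM, 33.3% from 10 to 100 FPKM and 42.0% (308 of 734) at 100 FPKM or more. The interior share ran the other way, from 44.1% of genes listed at 0 down to 21.9% of genes at 100 FPKM or more. The outside share stayed between 36.0% and 38.0% in every level group. Among protein-coding genes alone the boundary share rose in the same order, from 16.0% of genes listed at 0 to 42.0% (294 of 700) at 100 FPKM or more. The other 2 positions did not repeat the pattern of all classed genes. The protein-coding interior share had no steady fall up to 10 FPKM, with 37.2% at 0 and 36.6% from 1 to 10 FPKM. It was 22.1% at 100 FPKM or more. The protein-coding outside share went from 46.7% at 0 to 32.7% from 1 to 10 FPKM, and was 35.9% at 100 FPKM or more.

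**Figure D2:**
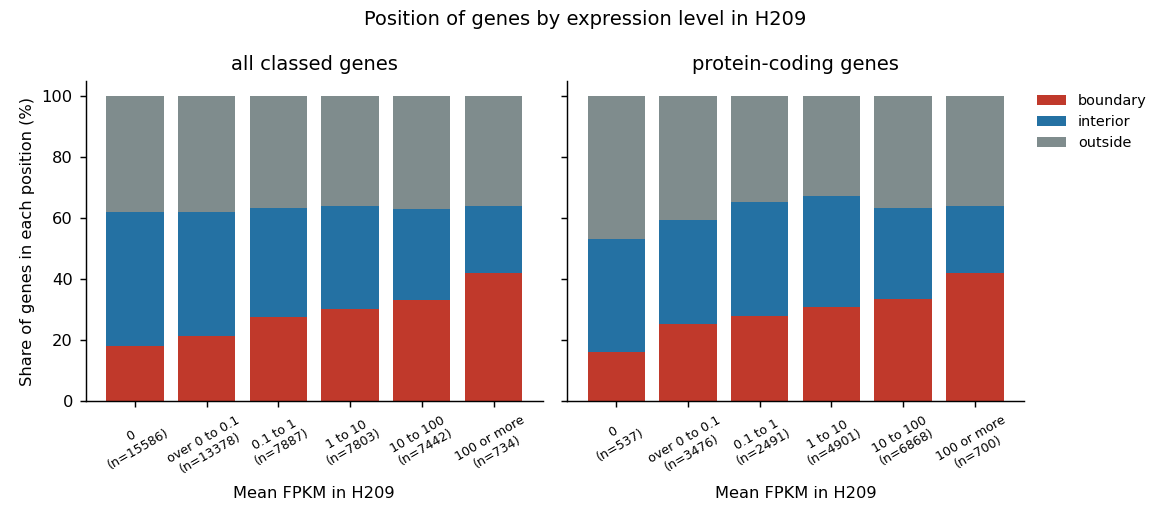
Stacked bars give the share of genes in each position (boundary at the bottom, then interior, then outside) for groups of genes ordered by mean H209 FPKM, with the number of genes under each bar, for all classed genes on the left and for protein-coding genes on the right. The boundary share of all classed genes climbs with the level, reaching 42.0% at 100 FPKM or more, against 17.9% of genes listed at 0.

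Gene kinds were taken from RefSeq by identifier or symbol, which matched 35292 genes. Protein-coding genes made up 44.4% of boundary genes, 31.4% of interior genes and 34.9% of outside genes. Within the 18973 protein-coding genes the expressed share was 71.2% at boundaries, against 63.3% in interiors and 63.2% outside, so the boundary excess over interiors was 7.83 percentage points within this kind of gene. Long noncoding RNAs were expressed in 21.9% of cases at boundaries and in 13.9% in interiors, and pseudogenes in 7.41% and 3.36%. Every one of these kinds had its higher share at boundaries than in interiors, and the difference between the kinds was larger than that between the positions. Pseudogenes were the exception against the outside class, where 7.85% were expressed. Reads of near-identical copies can be split between a gene and its pseudogenes, which the files do not resolve.

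Boundary genes had the higher expressed share in each of 4 equally large classes of locus length. In the shortest class, up to 0.724 kb, 7.31% of boundary genes and 2.99% of interior genes were expressed. In the next class the shares were 24.5% and 11.1%, in the one after it 52.9% and 29.1%, and in the longest, above 26.5 kb, 66.3% and 53.9%. Expressed boundary genes were also more compact. Their median locus length was 19.01 kb, against 46.1 kb for expressed interior genes and 21.2 kb for expressed outside genes. A long gene can span both an edge and an interior while its midpoint counts once.

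The excess at boundaries was present on all 23 chromosomes compared. It ran from 3.83 percentage points on chromosome 22, where 42.4% of boundary genes and 38.6% of interior genes were expressed, to 21.4 percentage points on chromosome 21, with 38.7% and 17.2%. The gene-dense chromosome 19 had the highest shares in both positions, 50.6% at boundaries and 40.5% in interiors. Within protein-coding genes the boundary share was higher on 21 of 23 chromosomes. The exceptions were chromosome 13, with 71.1% of 83 boundary genes and 71.2% of 139 interior genes, and chromosome 15, with 76.1% of 184 and 79.4% of 182. The widest protein-coding gaps were on chromosome 21 (77.2% and 57.8%) and chromosome 17 (73.2% and 54.6%).

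**Figure D3:**
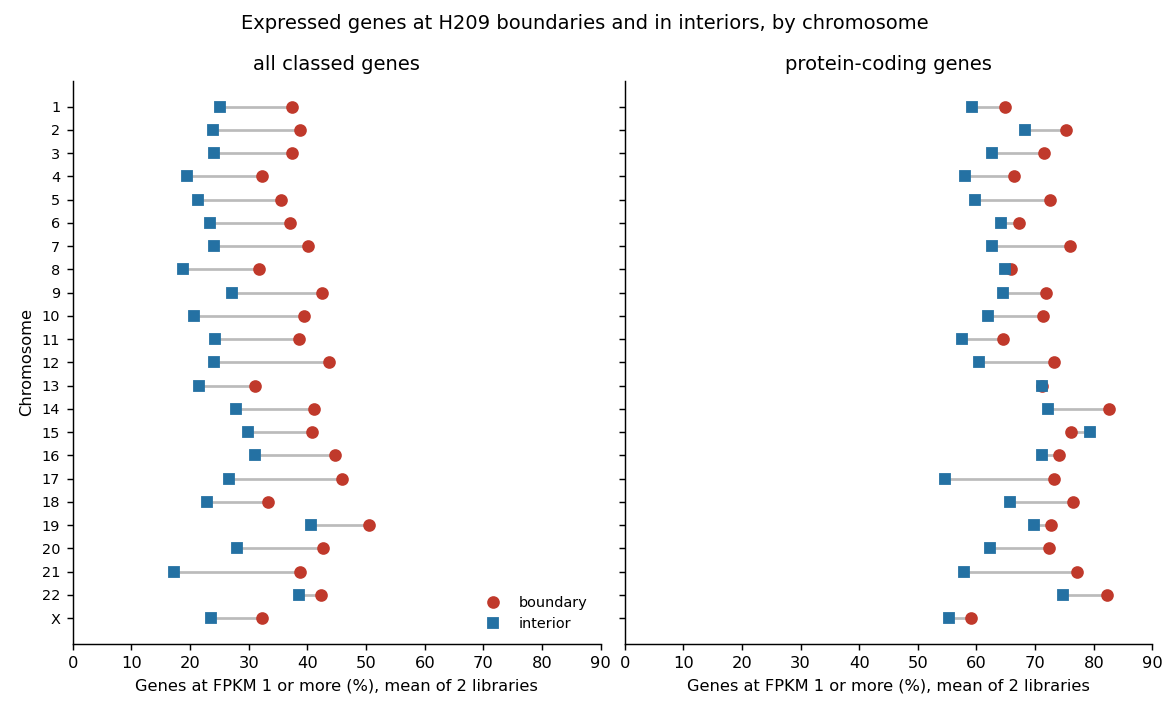
Each row is a chromosome, and the horizontal axis is the share of genes at FPKM 1 or more as the mean of both H209 libraries, with circles for boundary genes and squares for interior genes, for all classed genes on the left and for protein-coding genes on the right. Circles lie to the right of squares on all 23 chromosomes on the left, and on 21 of 23 on the right, where chromosomes 13 and 15 differ.

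Boundary and interior genes of the same domain were also set against each other. Each gene was counted in the largest domain that held its midpoint. Domains can overlap, so a boundary gene may lie near the edge of another domain than the one it was counted in. In 1459 domains with at least 2 genes of each class, the expressed share averaged 36.0% for boundary genes and 29.0% for interior genes. The boundary share was higher in 692 of these domains, lower in 521 and equal in 246. With protein-coding genes only, 324 domains qualified, the averages were 67.3% and 63.4%, and the boundary share was higher in 133, lower in 102 and equal in 89. The difference of 7.02 percentage points within domains was less than the 14.9 points over all genes, and domains without enough genes in both positions do not enter the value within domains.

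The expressed share was lower in larger domains. In domains up to 200 kb, 42.9% of boundary genes and 36.2% of interior genes were expressed. From 200 to 500 kb the shares were 36.5% and 29.7%, from 500 kb to 1 Mb 32.9% and 22.4%, and above 1 Mb 28.2% and 16.5%. Interiors of the 416 domains above 1 Mb, with 5338 genes, had the lowest of these shares. Among protein-coding genes in interiors the shares were 70.2%, 64.9%, 59.1% and 60.6% in the same order of domain size, lowest at 500 kb to 1 Mb, and at boundaries 71.1%, 70.5%, 69.5% and 67.8%.

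Genes were denser near edges. The boundary zone covered 507 Mb with 25.5 genes and 10.2 expressed genes per Mb, against 13.8 genes and 3.43 expressed genes per Mb in the 1456 Mb of interiors. In the 2798 domains of at least 200 kb, windows of 80 kb were laid on the domain start, the domain end and the domain centre. An expressed gene was found in 41.5% and 41.2% of start windows and in 41.1% and 40.7% of end windows, against 26.4% and 26.2% of centre windows (replicates 1 and 2). Starts and ends thus differed from centres and hardly from each other. A gene at 100 FPKM or more was found in 3.43% of start windows and 3.61% of end windows, against 0.929% of centre windows, in replicate 1.

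Promoters of protein-coding genes were read from RefSeq (GRCh38.p14), as 250 bases before and 50 after the start of each gene, and called rich in CpG, the dinucleotide CG, at a GC content of at least 50% and an observed over expected CpG ratio of at least 0.6. Promoters were found for 80.4% of boundary and 80.9% of interior protein-coding genes. Of these, 69.0% were CpG-rich at boundaries and 61.4% in interiors, against 64.2% over all classed protein-coding genes with a promoter. The share was 46.6% of all 27305 promoters in the table, which were not limited to protein-coding genes. Within both promoter groups the expressed share was higher at boundaries than in interiors. The groups are broad, and whether promoter content accounts for the difference by position was not tested. CpG-rich promoters had an expressed gene in 87.3 ± 0.0886% of cases at boundaries and 82.2 ± 0.0450% in interiors, and other promoters in 43.0 ± 0.345% and 36.3 ± 0.286% (SD, n = 2). For outside genes, 78.1% had a promoter in the table, below the 80% set as a minimum, so that check is void for them. Over all classed protein-coding genes, 79.7% had a promoter, just below that minimum too.

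The TATA box and the CTCF motif were searched on both strands of the 300 bases. TATAAA, the core of the TATA box, was present in 7.76% of boundary and 10.8% of interior promoters. The share was 9.56% over all classed protein-coding genes and 12.0% over all promoters in the table. Among expressed genes the shares were 5.76% at boundaries and 5.84% in interiors, and among genes not expressed 13.4% and 19.9%. The consensus core of the CTCF motif, 12 bases with 4 of them ambiguous, was rare. It was present in 0.670% of 4625 boundary and 0.391% of 5118 interior promoters, so the matches were few. The share was 0.536% over all classed protein-coding genes and 0.524% over all promoters in the table. Boundary and interior shares were 0.705% and 0.333% among expressed genes, and 0.574% and 0.496% among genes not expressed. A match is a description of the sequence and not a bound site, and CTCF binding was not measured. The promoters of 4 genes are shown as examples of CpG-rich promoters at boundaries (EEF2, CHGA) and of a CpG-rich and a CpG-poor one in interiors (NEUROD1, CEACAM5), and do not span the CpG content of either class. Each is printed 5′ to 3′ as the 250 bases before the start, with every CG in capitals and the minus-strand genes on their own strand.
EEF2 (boundary, GRCh38 chr19:3985464-3985713, minus strand): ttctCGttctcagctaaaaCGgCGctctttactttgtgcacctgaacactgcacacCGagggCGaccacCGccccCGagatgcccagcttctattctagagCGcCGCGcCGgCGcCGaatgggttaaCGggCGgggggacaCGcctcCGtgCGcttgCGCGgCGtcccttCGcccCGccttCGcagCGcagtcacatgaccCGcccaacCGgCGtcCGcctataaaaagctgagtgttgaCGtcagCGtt
CHGA (boundary, GRCh38 chr14:92922900-92923149, plus strand): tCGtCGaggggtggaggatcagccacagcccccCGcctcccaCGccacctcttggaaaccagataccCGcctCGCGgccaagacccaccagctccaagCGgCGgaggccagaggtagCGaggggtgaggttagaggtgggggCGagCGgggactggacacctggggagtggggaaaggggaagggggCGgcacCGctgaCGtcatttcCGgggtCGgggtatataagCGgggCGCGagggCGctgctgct
NEUROD1 (interior, GRCh38 chr2:181680518-181680767, minus strand): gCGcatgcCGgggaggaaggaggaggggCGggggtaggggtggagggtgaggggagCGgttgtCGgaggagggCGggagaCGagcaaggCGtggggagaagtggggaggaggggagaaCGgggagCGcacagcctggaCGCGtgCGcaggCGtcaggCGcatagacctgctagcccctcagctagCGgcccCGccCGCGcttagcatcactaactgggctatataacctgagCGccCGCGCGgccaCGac
CEACAM5 (interior, GRCh38 chr19:41708376-41708625, plus strand): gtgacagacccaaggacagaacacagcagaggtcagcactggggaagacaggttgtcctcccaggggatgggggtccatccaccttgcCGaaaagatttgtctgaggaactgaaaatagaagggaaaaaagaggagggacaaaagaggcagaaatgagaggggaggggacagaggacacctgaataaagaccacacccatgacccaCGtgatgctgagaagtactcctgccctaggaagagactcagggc
The printed bases hold 31 CG in EEF2, 21 in CHGA, 24 in NEUROD1 and 2 in CEACAM5. TATAAA is found in EEF2 alone among these promoters and the CTCF core in none of them. CEACAM5, a cell surface glycoprotein, had 511 and 495 FPKM in H209 with an interior position and few CG.

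The genes with the highest levels at boundaries were mostly housekeeping genes of translation, the cytoskeleton and glycolysis. In H209 replicates 1 and 2, ACTG1 (hg19 chr17:79476997-79490873), cytoplasmic gamma actin, had 2004 and 2065 FPKM. GAPDH (chr12:6643093-6647537), a glycolytic enzyme, had 1609 and 1817 FPKM. The ribosomal protein gene RPS27 had 1452 and 1745 FPKM, and RPS24 had 1383 and 1621 FPKM. The splicing regulator HNRNPA2B1 (chr7:26229547-26241149) was also among the highest of the class with 1046 and 1087 FPKM, 4.65 kb from the end of a 120 kb domain. These 5 genes were at 1046 FPKM or more in both libraries.

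The interior class had top genes of the same order of level. FTH1 (chr11:61727190-61735132), the heavy chain of the iron store ferritin, had 1793 and 1838 FPKM at 149 kb from an edge. PTMA, prothymosin alpha, had 1629 and 1827 FPKM at 85.1 kb, and the tubulin genes TUBA1A and TUBA1B had 1309 and 1502 FPKM and 1063 and 1131 FPKM. ACTB, beta actin, had 1261 and 1301 FPKM, and PABPC1, which binds the tails of mRNAs, had 1297 and 1265 FPKM. Actins and tubulins are families of near-identical copies, so their split is uncertain. Outside domains the highest was EEF1A1, a translation elongation factor with many pseudogenes, at 3551 and 4094 FPKM, followed by RPLP0, RPL8, RPS2, RPL24 and RPL30, each between 921 and 1510 FPKM.

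Function lists were compared by position, with the boundary share of 30.3%, the interior share of 33.3% and the outside share of 36.3% of all protein-coding genes as the background. Lists of housekeeping machinery had more members at boundaries and fewer in interiors than that background. Only 65.7% of the background genes were expressed. Protein-coding genes at 100 FPKM or more, whatever their function, had 42.0% at boundaries and 22.1% in interiors. The lists were not compared with genes of like level. Of 89 cytosolic ribosomal protein genes, 44 (49.4%) lay at boundaries, 7 in interiors and 38 outside. All 44 at boundaries were expressed, with a median of 483 FPKM, against 5 of 7 in interiors with a median of 419 FPKM over the 7. The 44 genes used 43 different domain edges, so they were not a single cluster. Of 76 mitochondrial ribosomal protein genes, 34 lay at boundaries and 11 in interiors, and of 75 nuclear genes of the respiratory chain 33 and 16. EEF2 (chr19:3976054-3985467), the factor that moves the ribosome along the mRNA, had 854 and 893 FPKM with its midpoint 0.761 kb from the start of the domain chr19:3980000-4219998.

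Lists of RNA processing and of the cell cycle were placed in a similar way. Of 85 splicing genes, 42 lay at boundaries, 17 in interiors and 26 outside, with median levels of 125, 82.0 and 53.3 FPKM. Of 20 tRNA synthetase genes, 10 lay at boundaries and 2 in interiors. GARS, which charges glycine, led the boundary ones with 179 and 188 FPKM. Of 38 genes of mitosis and the cell cycle, 22 (57.9%) lay at boundaries and 6 in interiors, and of 43 DNA replication genes 20 and 8. PCNA (chr20:5095599-5107272), the sliding clamp of DNA polymerases, had 290 and 323 FPKM at 1.44 kb from an edge, and PTTG1, securin, had 151 and 163 FPKM at 7.71 kb. For these cell cycle lists the medians at boundaries, 44.3 and 30.9 FPKM, were below those in interiors, 50.7 and 48.0 FPKM. The same order held for mitochondrial ribosomal proteins (21.1 FPKM at boundaries and 30.5 FPKM in interiors), the proteasome (60.5 and 66.5 FPKM) and the genes of RNA polymerase II, Mediator and the general factors (20.3 and 23.4 FPKM), so a list with many boundary members did not always have its higher level there.

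The other lists of general machinery varied. Of 39 proteasome genes, 16 lay at boundaries, 8 in interiors and 15 outside. PSMD2 (chr3:184016497-184026842), a subunit of its regulatory particle, had 179 and 190 FPKM at 1.67 kb from an edge. Of 70 genes of RNA polymerase II, Mediator and the general transcription factors, 26 lay at boundaries and 17 in interiors. The 32 genes of chromatin architecture had 9 (28.1%) at boundaries, 7 (21.9%) in interiors and 16 outside. CTCF itself (chr16:67596310-67673086) was an interior gene with 31.4 and 32.9 FPKM at 45.3 kb from an edge of a 100 kb domain. Both ends of its locus lay within 40 kb of an edge, so it is interior by its midpoint only. The cohesin gene RAD21 lay outside with 170 and 163 FPKM.

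**Figure D4:**
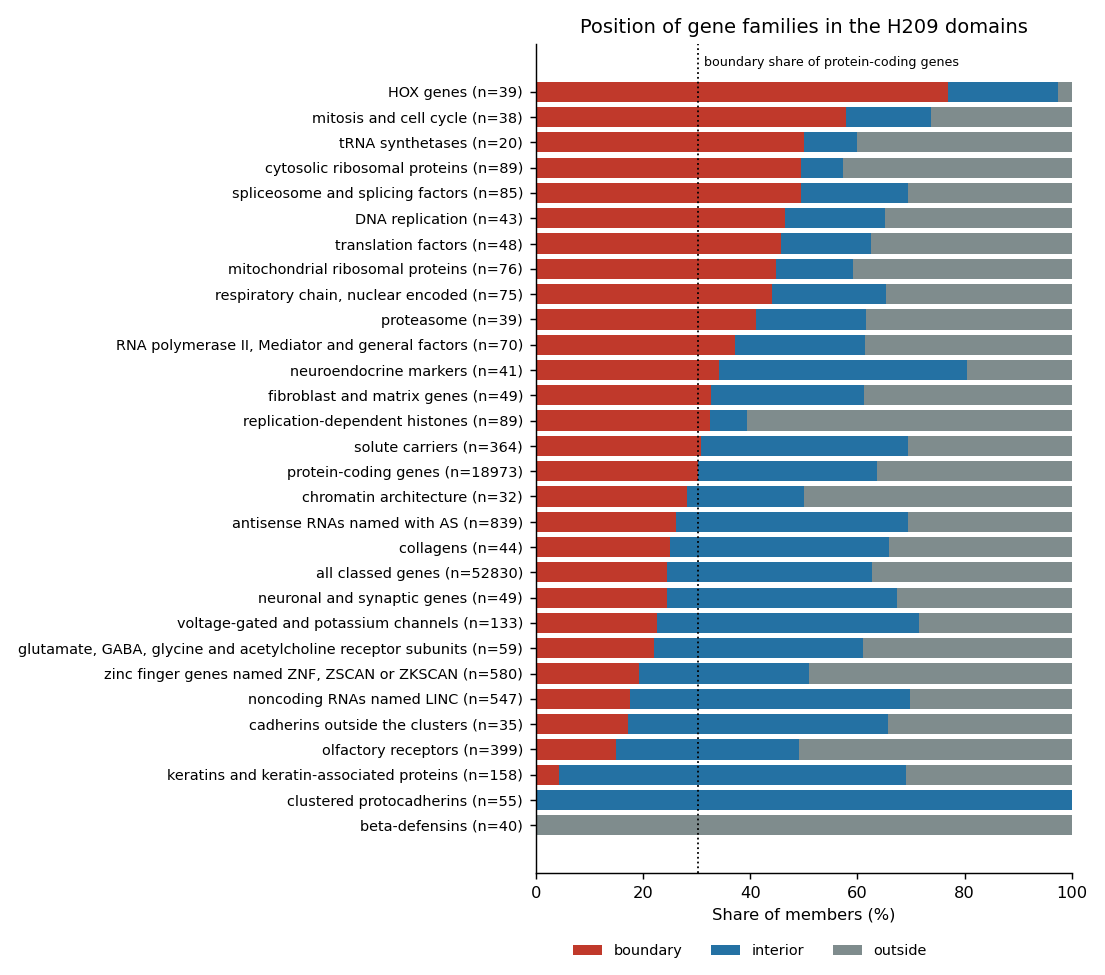
Each row is a gene list with its number of members, ordered by its boundary share, and the stacked bars give the share of members at boundaries, in interiors and outside domains. HOX genes (76.9% at boundaries) and lists of cell cycle, translation and splicing genes are at the top, and keratins (4.43%), clustered protocadherins (none at a boundary) and beta-defensins (all outside) at the bottom, with the dotted line at the 30.3% of all protein-coding genes.

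The HOX genes, transcription factors that set position along the body axis, had the highest boundary share of the lists. Of 39 members, 30 lay at boundaries, 8 in interiors and 1 outside, yet the 30 shared only 7 domain edges, so each cluster counts as a few places rather than as many independent genes. Of these, 24 at boundaries and 5 in interiors were expressed. In the HOXA cluster the midpoints lay 2.99 to 65.9 kb from an edge, and its highest gene was HOXA7 with 19.9 and 23.7 FPKM at 4.55 kb. In the HOXD cluster the highest was HOXD8 (chr2:176994422-176997423) with 39.6 and 37.4 FPKM at 15.9 kb, followed by HOXD10 with 35.5 and 34.3 FPKM at 0.906 kb. HOXA7, HOXD10 and HOXC9 were chosen with their values seen. In the HOXB cluster the highest was the interior gene HOXB2 (chr17:46618256-46623441) with 67.6 and 66.9 FPKM at 79.2 kb, above every boundary HOX gene, and 4 of its 10 genes were interior. The HOXC cluster was low, with a median of 0.397 FPKM over 9 genes, 8 of them at boundaries, and 7.32 and 7.97 FPKM for HOXC9, its highest.

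Families that are expressed in few tissues had lower boundary shares than the 30.3% of all protein-coding genes. All 55 clustered protocadherin genes, adhesion molecules of neurons, fell in a single 840 kb domain (chr5:140120000-140959998), 79.3 to 417 kb from its edges. Of these, 23 were expressed, up to 20.3 and 19.3 FPKM for PCDHA10. The members of the alpha cluster share exons with each other, as do those of the gamma cluster, so FPKM may be divided among them. Of 158 keratin and keratin-associated genes 7 lay at boundaries and 102 in interiors, with 16 expressed. KRT8, an epithelial keratin, was among the boundary ones with 305 and 295 FPKM, and KRT19 was interior with 96.9 and 88.2 FPKM. Of 399 olfactory receptor genes 60 lay at boundaries, 136 in interiors and 203 outside, and none was expressed. Their interior share of 34.1% was near the 33.3% of all protein-coding genes. The 7 boundary keratin genes used 5 domain edges and the 60 boundary olfactory receptors 33, so neighbours on the same edge are not independent genes. The 40 beta-defensin genes, which encode antimicrobial peptides, all lay outside domains.

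Channel genes and noncoding RNAs named LINC were more often interior than at boundaries or outside. Of 133 voltage-gated and potassium channel genes, 30 lay at boundaries, 65 in interiors and 38 outside, of which 12, 25 and 22 were expressed. KCNA1, a potassium channel, had 93.1 and 94.6 FPKM at 69.8 kb from an edge. Of 59 receptor subunit genes for glutamate, GABA, glycine and acetylcholine, 13 lay at boundaries, 23 in interiors and 23 outside. The interior ones included GRIK3 with 34.9 and 31.3 FPKM at 400 kb. Of 547 noncoding RNAs named LINC, 96 (17.6%) lay at boundaries and 286 (52.3%) in interiors, against 24.5% and 38.2% of all classed genes. Antisense RNAs named with AS stood closer to all classed genes, with 26.2% of 839 at boundaries. The 580 zinc finger genes of the ZNF type had 19.3% at boundaries and 49.0% outside. Solute carriers, with 30.8% of 364 at boundaries, were near the background.

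Genes that define the neuroendocrine state of small cell lung carcinoma were found in both positions, with 14 of 41 markers at boundaries, 19 in interiors and 8 outside. INSM1 (chr20:20348765-20351590), a neuroendocrine transcription factor, had 294 FPKM in both H209 libraries at 10.2 kb from an edge and was listed at 0 in all 3 MRC5 libraries. CHGA (chr14:93389425-93401638), chromogranin A of secretory granules, had 361 and 350 FPKM at 4.47 kb. The transcription factor gene MYCL had 150 and 155 FPKM at 15.5 kb and the peptide hormone gene GRP had 165 and 168 FPKM at 7.30 kb, while MYC, at 10.7 kb from the start of a 2000 kb domain, had 0.142 and 0.0751 FPKM. These genes show boundary positions both with high and with very low values.

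Interior members included further identity genes. NEUROD1 (chr2:182537815-182545603), a neuronal transcription factor, had 64.1 and 79.9 FPKM at 58.3 kb from an edge. NKX2-1 (chr14:36985602-36990354), a factor of lung and thyroid development, had 86.3 and 88.6 FPKM at 112 kb within an 800 kb domain. DLL3, an inhibitory ligand of the Notch pathway, had 61.8 and 53.3 FPKM at 45.7 kb, and SYP, synaptophysin, 32.4 and 34.0 FPKM at 130 kb. CPE, which trims prohormones, had 170 and 179 FPKM at 49.1 kb. The CPE locus crosses the domain end, so it is interior by its midpoint only. Other interior genes, not presented here as identity genes, were EZH2 and RB1. EZH2, a histone methyltransferase, had 58.2 and 55.2 FPKM at 137 kb, and the tumour suppressor gene RB1 had 24.3 and 22.7 FPKM at 193 kb. Median levels of the neuroendocrine markers were 129 FPKM at boundaries and 40.1 FPKM in interiors, a description of 14 and 19 genes.

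The same positions were followed in the contrast of H209 with the fibroblasts. A gene was called in limma, a linear model with moderated variances over all 19066 genes tested, when its adjusted p (Benjamini-Hochberg) was under 0.05 and its log2 difference was 1 or more in size, on the log2(FPKM + 1) scale, which understates the change of low genes. Over all genes tested, 33% were higher and 14.9% lower in H209 than in MRC5, and 47.9% were called in either direction. At boundaries 1878 of 5830 tested genes (32.2%) were higher and 854 (14.6%) lower, and in interiors 2145 of 6064 (35.4%) were higher and 1031 (17.0%) lower. The shares in both classes were near those of all genes tested. The filter kept 45.02% of boundary genes and 30.1% of interior genes. With libraries scaled to a median ratio of 1 between genes, the split against MRC5 turned round, to 1139 higher and 1542 lower at boundaries, 1406 and 1596 in interiors, and 3877 and 4772 over all. That scaling set the median log2 difference over all genes at -0.03, against 0.46 with the values as deposited. In a bulk library, fewer cells with a transcript and less transcript per cell cannot be told apart.

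Against DMS153, the second carcinoma line, 13.4% of all genes tested were higher and 13.8% lower in H209, and 27.1% were called in either direction. At boundaries 785 genes (13.5%) were higher and 602 (10.3%) lower, and in interiors 777 (12.8%) were higher and 898 (14.8%) lower. The median log2 difference was 0.11 at boundaries and -0.02 in interiors, and 0.04 over all genes tested. With the median ratio scaling the boundary counts were 597 higher and 640 lower and the interior counts 605 and 929, so more boundary genes higher than lower was not kept under that scaling. Both contrasts use the same H209 libraries.

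The boundary genes with the largest differences from MRC5 included genes of neuroendocrine, epithelial and fibroblast cells. The largest rises among genes that reached a mean of 5 FPKM in either line, with no overlap between libraries, included CHGA, INSM1, EPCAM and TAGLN3. EPCAM, an epithelial adhesion molecule, had 281 and 279 FPKM in H209, against 0.161, 0.123 and 0.0462 FPKM in MRC5 (log2 fold change 7.99 ± 0.10 SE, limma adjusted p 3.2e-11). TAGLN3, a neuronal relative of transgelin, had 226 and 278 FPKM in H209 and at most 0.0375 FPKM in MRC5. The largest falls at boundaries were COL1A2, COL1A1, CTGF, F3 and CLU. COL1A1 (chr17:48260650-48278993), a chain of type I collagen, had 0.945 and 0.634 FPKM in H209, against 1087, 1217 and 1210 FPKM in MRC5 (log2 fold change -9.36 ± 0.12 SE, limma adjusted p 3.2e-11).

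Among interior genes the largest rises against MRC5 were CEACAM5, listed at 0 in all 3 MRC5 libraries, SCNN1A, a subunit of the epithelial sodium channel, and TPD52. The TPD52 locus crosses a domain start, so it is interior by its midpoint only. SCNN1A had 361 and 399 FPKM in H209, against 0.0735, 0.229 and 0.0448 FPKM in MRC5 (log2 fold change 8.42 ± 0.09 SE, limma adjusted p 1.3e-11). The largest falls were DCN, COL6A3 and CD44. DCN (chr12:91539025-91576900), the matrix proteoglycan decorin, had 0.000592 and 7.75e-05 FPKM in H209, against 2333, 2481 and 2389 FPKM in MRC5 (log2 fold change -11.23 ± 0.07 SE, limma adjusted p 2.6e-12). Of 49 fibroblast and matrix genes, 15 of 16 at boundaries, 14 of 14 in interiors and 19 of 19 outside fell. Their median log2 fold changes were -7.00, -6.91 and -6.95, and 14.9% of all genes tested were lower. The list was made of fibroblast genes and MRC5 is a fibroblast line, so these falls follow from its choice and say nothing about position. The median over all 19066 genes tested was 0.46.

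Housekeeping lists with many members at boundaries moved in different ways against MRC5, where 33% of all tested genes were higher and 14.9% lower with the values as deposited, and 20.8% and 25.5% with the median ratio scaling. Of 44 cytosolic ribosomal protein genes at boundaries, 13 fell and none rose, with a median log2 fold change of -0.72, and in interiors 2 of 5 tested fell. With the median ratio scaling 40 of the 44 fell, and with small RNA and mitochondrial genes left out of the scaling 7 fell and 1 rose. Of 34 mitochondrial ribosomal protein genes at boundaries 3 rose and none fell. With the median ratio scaling 1 rose and 6 fell, so their direction depended on the scaling. Of 42 splicing genes at boundaries 23 rose and none fell (median 1.14), and in interiors 10 of 17 rose (median 1.11). With the median ratio scaling 1 splicing gene rose and 2 fell of 41 at boundaries, with a median of 0.43, and 3 of 17 rose in interiors. All 22 mitosis and cell cycle genes at boundaries and all 6 in interiors rose, with medians of 3.87 and 3.99. All 20 replication genes at boundaries and 7 of 8 in interiors rose. With the median ratio scaling 21 mitosis and 19 replication genes at boundaries rose. PCNA had 290 and 323 FPKM in H209, against 37.6, 37.9 and 35.4 FPKM in MRC5 (log2 fold change 3.02 ± 0.09 SE, limma adjusted p 2e-09). HNRNPA2B1 had 1046 and 1087 FPKM in H209, against 321, 353 and 324 FPKM in MRC5 (log2 fold change 1.68 ± 0.08 SE, limma adjusted p 4.4e-08), a call lost under the median ratio scaling, where the log2 fold change was 0.92. CTCF, called higher in H209 with a log2 fold change of 1.57, likewise lost the call there, at 0.86.

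HOX, neuroendocrine and neuronal members were read against the same 33% of all tested genes higher and 14.9% lower. Of 25 tested HOX genes at boundaries 18 rose and none fell (median log2 fold change 2.54), and of 5 tested in interiors 2 rose and none fell (median 0.88). With the median ratio scaling 17 rose and 1 fell of 24 at boundaries, and 2 rose and 1 fell in interiors. HOXD8 had 39.6 and 37.4 FPKM in H209 and at most 0.0754 FPKM in MRC5, and HOXB2 had 67.6 and 66.9 FPKM in H209, against 16.4, 21.1 and 18.3 FPKM in MRC5. Of 14 neuroendocrine markers at boundaries 12 rose and none fell, and of 19 in interiors 17 rose and 1 fell. UCHL1, a ubiquitin hydrolase and the highest boundary marker, had 542 and 567 FPKM in H209, against 705, 791 and 705 FPKM in MRC5, and was not called, but with the median ratio scaling it was called lower with a log2 fold change of -1.16. Of 10 tested neuronal and synaptic genes at boundaries 6 rose and none fell, of 21 in interiors 16 rose and 1 fell, and of 16 outside 13 rose and 2 fell.

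A boundary excess was also present in the RNA of the other lines. Over the H209 domains, the boundary share minus the interior share was 14.9 ± 0.0281 percentage points in H209 RNA (SD, n = 2), 13.8 ± 0.207 points in DMS153 RNA (n = 3) and 13.6 ± 0.0764 points in MRC5 RNA (n = 3). H209 exceeded MRC5 by 1.249 points and DMS153 by 1.12 points, and in both pairs the libraries did not overlap. With named genes only the excess over MRC5 was 0.425 points. An exact permutation test over libraries, 2-sided, gave p = 0.2 for each, which is the smallest p that this test can give with 2 against 3 libraries, so it cannot reach 0.05. The median log2 level of expressed boundary genes minus that of interior genes was 0.30 in both H209 libraries, against 0.33, 0.34 and 0.32 in DMS153 and 0.24, 0.26 and 0.24 in MRC5, so on this measure DMS153 was above H209. Fewer genes were expressed in MRC5 in all positions. At H209 boundaries the shares were 34.1%, 33.9% and 33.9% in MRC5, against 39.7% and 39.6% in H209. In H209 interiors they were 20.5%, 20.2% and 20.3% in MRC5, against 24.8% and 24.7% in H209. A difference in points depends on how many genes a line expresses, so the 1.249 points over MRC5 do not show a larger relative excess in H209.

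Domains of the other lines gave like values with H209 RNA. The H209 libraries had an excess of 14.2 and 14.1 points over the DMS153 domains and of 15.3 and 15.2 points over the MRC5 domains. The excess of H209 RNA was thus as large on the fibroblast list as on its own. Most genes kept their position between the lists. Of the H209 boundary genes, 69.4% were also boundary genes of MRC5, 11.3% were interior there and 19.3% outside, and of the H209 interior genes 70.4% were interior in MRC5 too. Each list comes from 1 Hi-C library, so a difference between lists cannot be told apart from a difference between libraries.

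**Figure D5:**
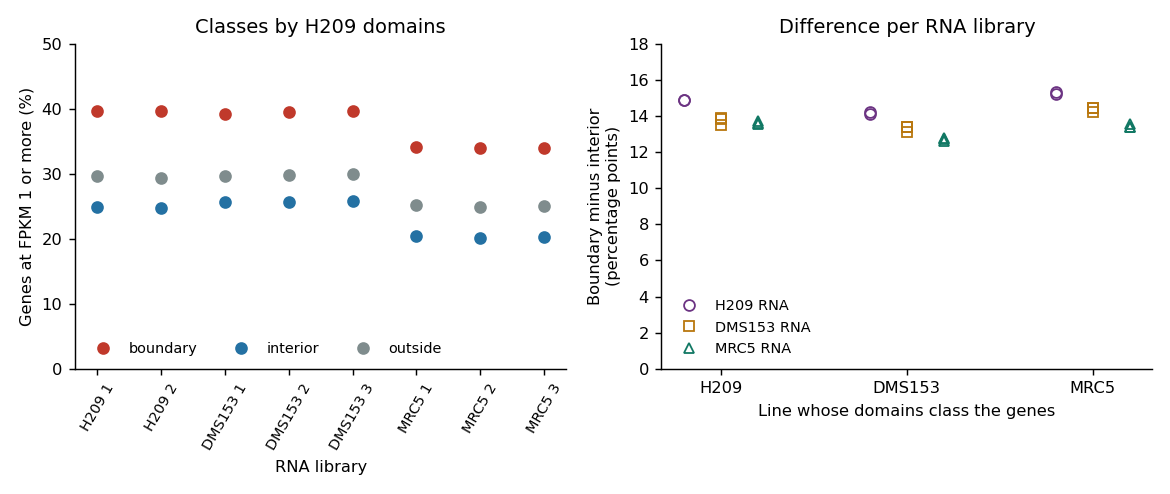
On the left, points give the share of genes at FPKM 1 or more at boundaries, in interiors and outside the H209 domains for each RNA library, from H209 through DMS153 to MRC5. On the right, each symbol is the boundary minus interior difference of an RNA library when genes are classed by the domains of H209, DMS153 or MRC5, and all lie between 12.6 and 15.3 percentage points.

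Genes that were at a boundary in H209 and interior in MRC5 could be compared with those that were interior in both. The 1463 genes at a boundary in H209 and interior in MRC5 had expressed shares of 36.6% and 36.8% in H209, against 30.5%, 30.2% and 30.6% in MRC5, and the 14190 genes interior in both had 24.4% and 24.3% in H209, against 21.0%, 20.7% and 20.9% in MRC5. The first set had a higher share already in the fibroblasts, where those genes were interior. Their median log2 fold change of H209 over MRC5 was 0.41 over 610 tested genes, against 0.42 over 4244 tested genes interior in both. Of the 610, 34.8% were higher and 17.2% lower in H209, against 33.7% and 18.9% of the 4244. The 1307 genes with the reverse move, interior in H209 and at a boundary in MRC5, had a median of 0.65 over 533 tested genes, of which 38.1% were higher and 17.8% lower. Genes at a boundary in H209 and outside in MRC5 had a median of 0.53, and genes interior in H209 and outside in MRC5 one of 0.71. GRP and MYCL were among the genes with a boundary position in H209 and an interior one in MRC5. HNRNPA2B1 and STAG2, a cohesin subunit with 46.8 and 35.6 FPKM in H209, were others. These named genes were all called higher in H209, unlike most of the set, so they do not represent it. HNRNPA2B1 and STAG2 lost the call under the median ratio scaling, with log2 fold changes of 0.92 and 0.59.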

How the data were processed

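Per the submitters' processing notes, Bowtie2, HOMER 4.8, TopHat2 2.1.0 and Cufflinks 2.2.0 were used with the human assembly hg19, without their settings. The authors deposited FPKM values per gene with interval bounds, in 1 table for each RNA library, and domain lists with 1 score per domain whose meaning is not stated per the file headers, since the lists have none. The deposited score was used only to rank domains. Counts, strand, RNA selection and depth are not given, so overlapping and antisense genes can share reads.

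Genes were placed by locus midpoint with Python 3.11.15 (pandas 2.3.3, scipy 1.17.1), using a limit of 40 kb and FPKM 1 for expressed, in each library and on the mean of both. Locus starts were converted to 1-based positions. Gene kinds and promoters came from RefSeq tables of GRCh38.p14, matched by identifier or symbol, with no coordinates carried between builds. Of the listed identifiers, 47453 matched a current symbol.

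Contrasts used limma 3.58.1 in R 4.3.3 on log2(FPKM + 1) with all 8 RNA libraries in 1 fit, genes at FPKM 1 or more in at least 2 libraries, eBayes with trend and Benjamini-Hochberg adjustment over 19066 genes. The fit was tested on simulated data. Named genes were the 6 highest per class, the 5 largest rises and falls of boundary genes and 3 of interior genes against MRC5, 18 core genes, the highest member of each list in each position, and the 3 nearest genes on each side of the limit. Some genes that this rule names are not reported here. The members, lists and rules were chosen with earlier results of these data known, and the splicing and translation lists were corrected after their counts were seen, to drop pseudogenes. Lists were described by counts only. Alternatives were other limits, positions, thresholds, gene sets, scalings, a replicate block, and each library left out.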

Additional observations from a re-analysis of the deposited data

How the results depend on the processing

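The boundary minus interior difference in the expressed share, 14.9 percentage points, and in the median log2 level, 0.30, kept their sign under all 17 alternatives run for each. With a window of 20 kb they were 14.8 and 0.38, with 80 kb 15.0 and 0.36, by locus start 18.2 and 0.35, by locus end 17.8 and 0.39, and with any part of the locus near an edge 25.7 and 0.47. Named genes only gave 14.2 and 0.33, genes without a failed status 14.856 points, equal weight for 4 length classes 13.5 and 0.33, domains with a score above the median 13.9 and 0.30, and all but chromosome 19 14.6 and 0.28. Thresholds of FPKM 0.1 and 5 gave 17.7 and 11.8 points, no filter a median difference of 0.29 and a pseudocount of 0.1 one of 0.33. Added after seeing the data, protein-coding genes only gave 7.83 points and 0.34, their transcription start side 11.6 and 0.39, and their transcript end side 10.1 and 0.44. Without 1 H209 library the values ran from 14.8676 to 14.9073 points and from 0.300815 to 0.302836.

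Against MRC5 9139 genes were called, and against DMS153 5169. The replicate block gave 9112 and 5101. Replicate numbers did not pair the libraries, since deviations of same-numbered libraries correlated between -0.0118 and 0.123. The scaling without small RNA gave 11678 and 6828 calls and the median ratio scaling 8649 and 4661, and leaving out 1 library gave 8515 to 9139 and 4619 to 5212. The H209 minus MRC5 difference in the boundary excess ran from 0.425 with named genes only to 1.42 with a threshold of 5 FPKM. Calls of named genes were lost in 19 gene and setting pairs (15 genes) and gained in 16, and none changed direction. The cause was not tested. Depth is unknown, so absence at low FPKM cannot be told from low sampling.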
